A study of Mus musculus with 18 samples.

Results

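The genes that copy DNA and the genes that separate the copied chromosomes were examined in C2C12 myotubes given the glucocorticoid dexamethasone (Dex). The set names 40 genes of the cell cycle, 21 of which act in DNA replication and its nucleotide supply and the others in mitosis. A gene was taken as measured where the array's annotation gives at least 1 probe with its symbol, and the brightest probe by mean log2 intensity over all 18 arrays stood for the gene. By that rule 38 of the 40 genes had a probe, 21 for replication and 17 for mitosis, among 19057 genes in all. Mki67 and Ccnb1 had no probe under their symbols and were not analysed here.

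C2C12 is a mouse myoblast line that stops dividing and fuses into multinucleated myotubes when serum is reduced. RNA came from 4 groups of myotubes kept in medium with 2% horse serum and measured on Illumina mouseWG-6 arrays. They were 4 arrays after 6 h with 1 uM Dex, 4 arrays after 6 h with ethanol at 0.01% of the medium volume, 5 arrays after 24 h with Dex and 5 arrays after 24 h with ethanol. All 4 groups share the cell line, the differentiated state and the serum, and ethanol is named as the vehicle of Dex. The design text speaks of triplicates, whereas the arrays are numbered to 4 and to 5. Whether the numbered arrays stand for separate cultures is not stated in the labels. P-values therefore speak only of the spread among these arrays, and that spread may be technical.

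Before DNA is copied, the ring-shaped helicase made of Mcm proteins is loaded at origins by Cdc6 and Cdt1 and is then started with the help of the GINS complex. The clamp Pcna, its loaders, the flap nuclease Fen1 and the ligase Lig1 finish the new strands, while ribonucleotide reductase and thymidylate synthase supply the nucleotides. In mitosis Cdk1 with its cyclins, the Aurora and Polo kinases, the spindle checkpoint and motor proteins such as Kif11 condense and separate the chromosomes, and Cdc20 triggers the separation. Fused myotubes have left the cell cycle, and C2C12 cultures usually keep some unfused mononucleated cells. E2F factors switch the replication genes on at the start of S phase, and many mitotic genes are held silent in resting cells, and activated late in the cycle, through a short element named CHR that often lies next to CCAAT boxes.

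Promoter sequence is shown for the 4 genes with the smallest p-values in either comparison of Dex with ethanol (6 h or 24 h) whose window was in the RefSeq promoter table. The windows run from 250 bases before to 50 bases after the annotated start, in the direction of the gene, on GRCm38.p6. Cdk1, the mitotic kinase, lies at chr10:69352863-69353162 on the minus strand. Mcm6, a helicase subunit, lies at chr1:128359656-128359955 on the minus strand. Rrm2, the small subunit of ribonucleotide reductase, lies at chr12:24708004-24708303 on the plus strand. Tyms, thymidylate synthase, lies at chr5:30073576-30073875 on the minus strand. Capitals mark E2F words (TTTCCCGC, TTTCGCGC, TTTGCCGC or TTTGGCGC), CHR words (TTTGAA or TTCGAA) and CCAAT, each on either strand.
Cdk1: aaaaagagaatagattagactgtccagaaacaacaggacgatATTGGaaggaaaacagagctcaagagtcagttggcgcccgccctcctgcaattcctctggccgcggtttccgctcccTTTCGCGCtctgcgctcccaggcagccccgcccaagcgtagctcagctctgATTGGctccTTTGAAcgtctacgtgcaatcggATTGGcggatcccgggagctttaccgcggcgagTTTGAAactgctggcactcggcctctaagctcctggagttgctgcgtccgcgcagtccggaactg
Mcm6: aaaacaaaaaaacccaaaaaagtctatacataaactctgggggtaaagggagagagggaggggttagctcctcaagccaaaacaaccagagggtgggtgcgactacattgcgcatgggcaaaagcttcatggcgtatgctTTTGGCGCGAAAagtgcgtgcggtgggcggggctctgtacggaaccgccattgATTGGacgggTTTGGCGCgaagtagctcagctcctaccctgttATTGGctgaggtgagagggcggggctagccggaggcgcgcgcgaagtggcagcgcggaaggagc
Rrm2: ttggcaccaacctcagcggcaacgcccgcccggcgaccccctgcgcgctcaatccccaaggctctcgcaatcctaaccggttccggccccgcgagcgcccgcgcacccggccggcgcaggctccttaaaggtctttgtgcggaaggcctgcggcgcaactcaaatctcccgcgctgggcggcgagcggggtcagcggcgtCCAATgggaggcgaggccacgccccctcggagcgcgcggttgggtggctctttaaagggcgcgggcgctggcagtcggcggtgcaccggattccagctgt
Tyms: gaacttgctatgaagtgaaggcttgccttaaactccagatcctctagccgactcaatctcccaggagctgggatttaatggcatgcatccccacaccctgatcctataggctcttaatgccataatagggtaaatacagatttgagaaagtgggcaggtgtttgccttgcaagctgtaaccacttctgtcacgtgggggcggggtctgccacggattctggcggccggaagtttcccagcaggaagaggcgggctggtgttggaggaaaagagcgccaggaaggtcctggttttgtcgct

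The Cdk1 window held 1 E2F word, whose first base lay at -131 from the start, 2 CHR words at -71 and -15 and 3 CCAAT boxes at -208, -80 and -48. The Mcm6 window held E2F words at -110, -106 and -47, of which the first pair overlap on opposite strands, and CCAAT boxes at -57 and -14. Rrm2 had 1 CCAAT box at -50, and none of these letters stood in the Tyms window. Windows were found for 33 of the 40 genes, Mki67 and Ccnb1 among them, and for 27025 genes in all. An E2F word was present in 8 of 18 replication genes (44.4%) and in 1 of 15 mitosis genes (6.67%), the Cdk1 window, against 704 of all genes (2.60%). A CHR word was present in 4 replication genes (22.2%) and in 11 mitosis genes (73.3%), against 5854 of all genes (21.7%). CCAAT was present in 9 of the 18 replication genes and in 12 of the 15 mitosis genes, against 11096 of all genes (41.1%). The full glucocorticoid response element, AGAACA and TGTTCT with any 3 bases between, was found for none of the 33 genes and for 3 of all 27025 genes (0.0111%). At so small a share, its absence from 33 genes was likely beforehand. These are matches of letters, and say nothing of binding in these cells.

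**Figure D1:**
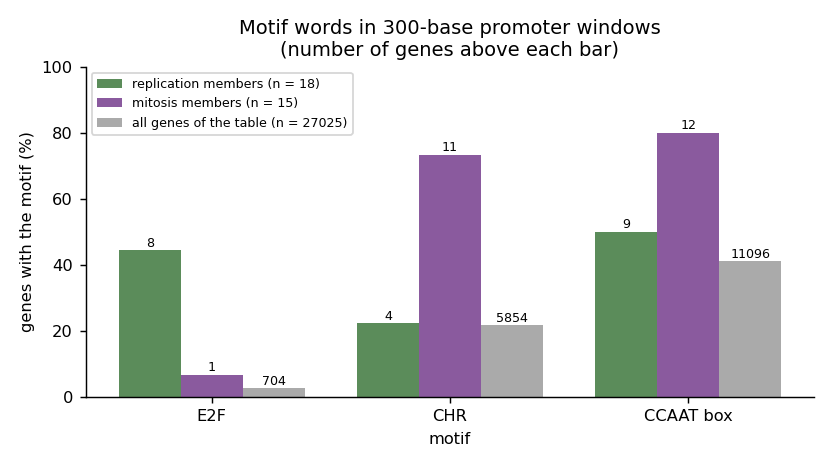
Share of promoter windows (%, y axis) that hold an E2F word, a CHR word or a CCAAT box (x axis), for 18 replication genes, 15 mitosis genes and all 27025 genes, with the number of genes above each bar. E2F words were found in 8 replication windows and 1 mitosis window, and CHR words in 4 and 11.

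Transcripts of both phases were measured in ethanol-treated myotubes, mostly well above the middle of the array. The median percentile among all genes was 67.8 at 24 h and 67.5 at 6 h for the 21 replication genes, and 66.0 at 24 h and 69.1 at 6 h for the 17 mitosis genes. Cenpa, the histone H3 variant of centromeres, was the highest member at both times (percentile 89.4 at 24 h and 92.5 at 6 h), and the helicase subunit Mcm4 was the highest of the replication genes (84.4 at 24 h and 85.5 at 6 h). The mean of Ccna2, Ccnb2, Bub1 and Kif20a lay below the median of all probes in ethanol at both times, so their intensities are close to the floor of the array, and no replication gene did. For scale, 12 genes of other organs had a median of 81.8 intensity units over the 24 h arrays and 95.7 over the 6 h arrays, and the brightest, Krt14, a keratin, reached 489.6 at 24 h and 650.8 at 6 h. In every array of the time, 2 members at 24 h and 5 at 6 h stood above that value. Krt14 itself fell with Dex at 24 h (log2 fold change -1.22), so its value is not a gauge of background. The share of all genes above it was not taken, and a lower intensity does not show absence. Ins2, an insulin gene and the next of the 12, lay at percentile 70.4 at 24 h and 65.6 at 6 h in ethanol. A percentile near the phase medians therefore does not by itself show expression. Array medians were 85.2 to 86.8 at 24 h and 99.8 to 100.4 at 6 h, with little spread within a time, so intensities were not compared between the times. Within ethanol, 15 of the 21 replication genes and 14 of the 17 mitosis genes had a lower percentile at 24 h than at 6 h, for example the ligase gene Lig1 with 68.3 at 24 h and 83.3 at 6 h. The share over all genes was not taken, so these counts are not read as a fall with time. If the times were scaled separately, these percentiles may carry it too, and its part in them was not tested.

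After 6 h, few of these genes differed between Dex and ethanol, in a share near that of all genes. Rrm2 rose, whereas Tyms, the thymidine kinase gene Tk1 and the spindle assembly factor gene Tpx2 fell. These 4 of 38 members (10.5%) passed an adjusted p of 0.05 in limma over all genes, and 9.06% of all 19057 genes did (4.67% higher, 4.39% lower). In bulk RNA of this kind, fewer dividing cells and less RNA per cell cannot be told apart. At an unadjusted p under 0.05 there were 8 of 38 members, beside 4232 of all 19057 genes, a similar share. The residuals of the 6 h arrays held 1 near-empty direction of 6 and those of the 24 h arrays 3 of 8, so the 18 arrays carry fewer independent deviations than the model's 14 residual degrees of freedom. Beside the adjusted p of each called member the value with these directions as covariates is therefore given, a fit that leaves 10 degrees of freedom and in which 1 member was called at 6 h, Rrm2, beside 4.46% of all genes.

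Rrm2, the subunit of ribonucleotide reductase that limits the supply of deoxynucleotides, had intensities of 1217.2, 1050.4, 1154.6 and 905 in the Dex arrays at 6 h, and of 650.5, 735.6, 690.5 and 991.4 in the ethanol arrays. The groups overlapped only through the lowest Dex array and the highest ethanol array. The means were 1082 ± 136 with Dex and 767 ± 154 with ethanol (SD, n = 4 each), or 0.51 on the log2 scale (SE 0.13, adjusted p = 0.0127 in limma, and 0.0345 with the covariates). A probe of Rrm2 of similar brightness gave 0.85 at 6 h (adjusted p = 3.43e-07 over all probes in limma) and the third, dimmer probe 0.19 (0.0925).

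Tyms, which makes thymidylate for DNA, had 274.3, 340.9, 341.7 and 385.1 in the Dex arrays at 6 h, and 369.3, 455, 390.5 and 461.5 in the ethanol arrays. All Dex arrays but the highest lay below all ethanol arrays, with a log2 fold change of -0.32 (SE 0.08, adjusted p = 0.0146 in limma, and 0.0575 with the covariates). Tk1, which recovers thymidine, had 210.4, 240.2, 246 and 262.3 with Dex, and 258.9, 293.5, 265.3 and 294.6 with ethanol. Its Dex values were lower except for a small overlap, with a log2 fold change of -0.22 (SE 0.07, adjusted p = 0.0419 in limma, 0.161 with the covariates and 0.0816 with the replicate number as a block). Leaving out single arrays ended the call of Tk1 for 5 of the 8 arrays of this time and that of Tyms for 2 of them, the ethanol array 4 and the Dex array 1. The other genes of nucleotide supply, the large reductase subunit gene Rrm1 and the dUTPase gene Dut, gave -0.04 and 0.04 and were not called.

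None of the 10 genes of helicase loading and the helicase passed the threshold at 6 h, and their log2 fold changes ran from -0.24 to 0.14. Mcm6 was the single member whose groups did not overlap, a condition met by 10.9% of all genes. Its intensities were 795.6, 776, 726 and 705.4 with Dex, and 945.3, 907.2, 854.9 and 830 with ethanol. Its log2 fold change of -0.24 (SE 0.08) was short of the threshold (adjusted p = 0.0727 in limma). Mcm2, another helicase subunit, had 262.4, 241.6, 240.7 and 254.4 with Dex, and 215.1, 284.3, 200.8 and 211.3 with ethanol. The second ethanol array stood above every Dex array and the other ethanol arrays below them, and the log2 fold change of 0.14 was not called (adjusted p = 0.368 in limma). Without that ethanol array it was 0.26 and was called (0.0370).

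The 5 genes of the replication fork all had log2 fold changes below 0 at 6 h, from -0.23 to -0.01, and none passed the threshold. Pcna, the sliding clamp, had 183.9, 208.9, 211 and 220.9 with Dex, and 215.8, 240.6, 237.4 and 277.3 with ethanol. Only the highest Dex array reached into the ethanol range, and the log2 fold change was -0.23 (SE 0.08, adjusted p = 0.0681 in limma, and 0.194 with the covariates). Leaving out ethanol array 1 (-0.29, adjusted p = 0.0262 in limma) or Dex array 4 made it a call. Ccne1, the cyclin that drives entry into S phase, gave -0.05.

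Among the mitosis genes, Tpx2, which activates Aurora A on the spindle, had 187.1, 183.6, 185.3 and 197.8 with Dex at 6 h, and 194.3, 229.4, 252.5 and 287.5 with ethanol. The Dex arrays lay close together at the low end of a wide ethanol range, with a log2 fold change of -0.34 (SE 0.10, adjusted p = 0.0412 in limma, 0.107 with the covariates and 0.0561 with the replicate block), and leaving out any of 6 of the 8 arrays ended the call. The remaining 16 mitosis genes ran from -0.18 for Plk1, the Polo kinase, to 0.15 for Bub1, a spindle checkpoint kinase, and none of them was called. Cdk1 had 473, 545, 513.8 and 585.4 with Dex and 511.5, 592.9, 533.3 and 562.4 with ethanol, overlapping ranges with a log2 fold change of -0.06. Cdc20, the activator of chromosome separation, had 761.2, 765, 701.4 and 664.5 with Dex and 774.8, 874.3, 655.7 and 750 with ethanol, also overlapping, with -0.07. Top2a, the topoisomerase that untangles chromosomes, had 181.7, 205.3, 193.2 and 206.6 with Dex and 206.9, 229.9, 205.6 and 223.1 with ethanol. The highest Dex array lay within the ethanol range, and the log2 fold change of -0.14 was not called (adjusted p = 0.298 in limma).

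**Figure D2:**
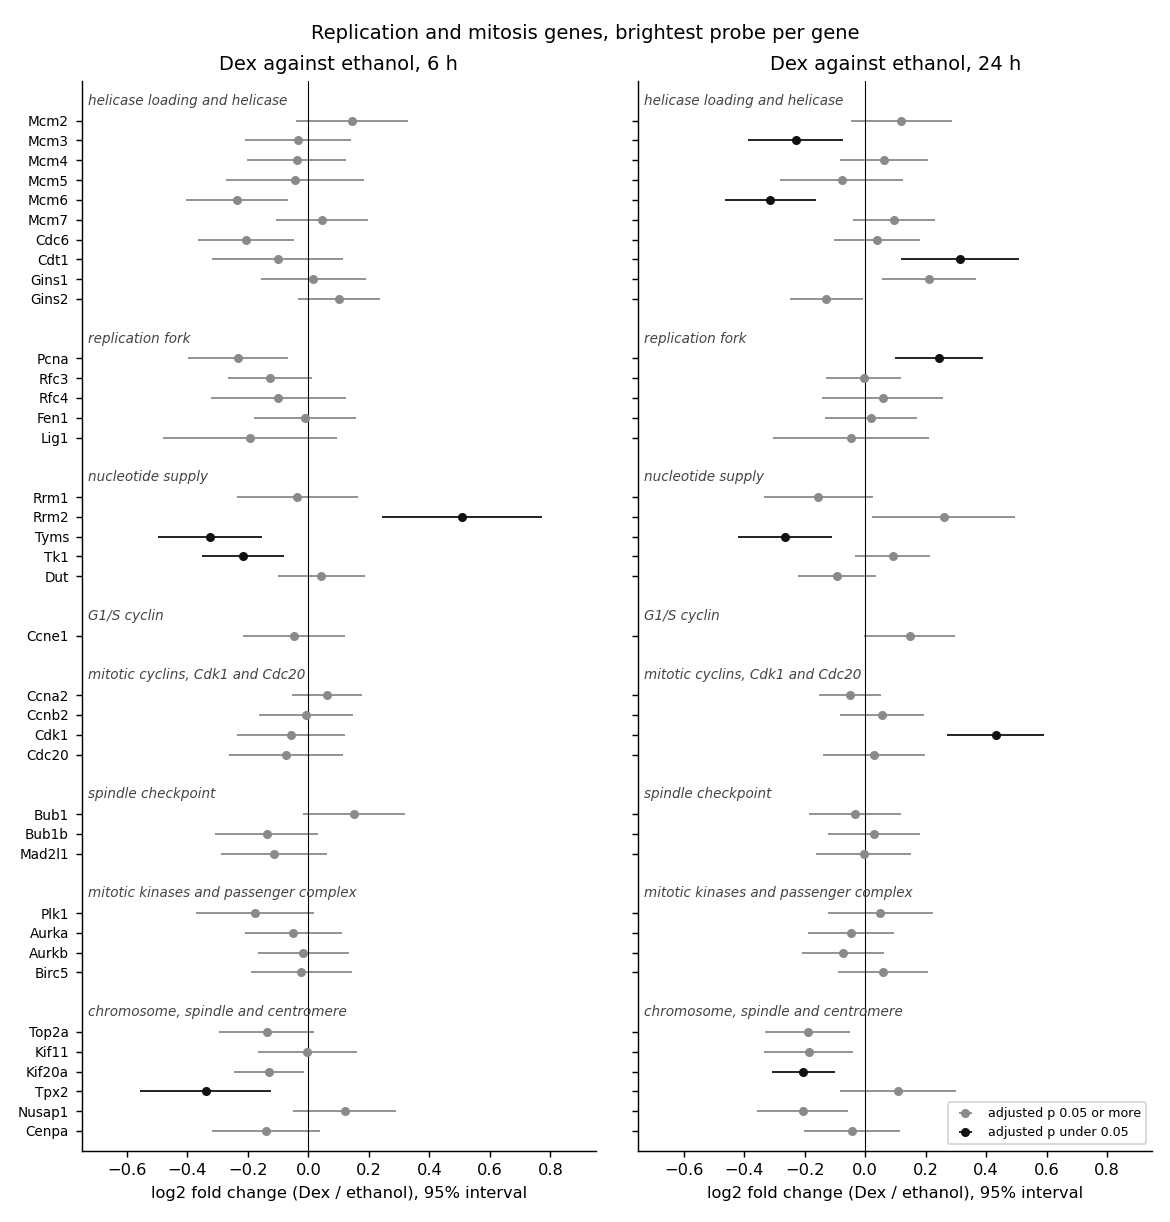
Log2 fold change of Dex over ethanol (x axis) with its 95% interval for the 38 measured genes (rows, grouped by role) at 6 h (left panel) and 24 h (right panel), with black points for adjusted p under 0.05. At 6 h the points past the threshold are Rrm2 to the right and Tyms, Tk1 and Tpx2 to the left, and at 24 h Cdt1, Pcna and Cdk1 to the right and Mcm3, Mcm6, Tyms and Kif20a to the left.

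After 24 h, 7 of the 38 members passed the threshold, in both directions and in both phases. Cdk1, Cdt1 and Pcna rose, and Mcm6, Mcm3, Tyms and Kif20a fell. This share of 18.4% stood beside 16.5% of all genes (8.39% higher, 8.10% lower). An unadjusted p under 0.05 was found for 13 of 38 members, beside 5575 of all 19057 genes. With the near-empty directions as covariates, Cdk1 and Mcm6 remained, beside 8.89% of all genes. The groups did not overlap for Tyms, Cdk1, Kif11 and Kif20a, 4 of 38 members, against 16.3% of all genes.

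Of the helicase and its loading factors, Mcm6 had 331.7, 288.6, 275.4, 310.6 and 345.1 with Dex at 24 h, and 357.9, 408.4, 443.9, 383.2 and 336.2 with ethanol. The lowest ethanol array fell inside the Dex range, and the log2 fold change was -0.31 (SE 0.07, adjusted p = 0.0042 in limma, and 0.0204 with the covariates). The next probes of Mcm6 by brightness gave -0.06 and -0.004 at 24 h, so the call rests on the brightest of its 4 probes. Mcm3 had 90.9, 89.1, 100.2, 97.7 and 93.8 with Dex, and 117, 119.4, 101.2, 116.8 and 100 with ethanol. The ranges touched at about 100 units, and the log2 fold change was -0.23 (SE 0.08, adjusted p = 0.0398 in limma, 0.109 with the covariates), a call that leaving out any of 7 of the 10 arrays ended. Mcm3 averaged 94.3 with Dex and 111 with ethanol at 24 h, not far above the array medians of 85.2 to 86.8, so it was close to the floor of the array.

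Cdt1, which loads the helicase at origins, had 343.5, 446.2, 353.8, 369.4 and 488.2 with Dex at 24 h, and 355.9, 321.2, 322.9, 331.2 and 268.7 with ethanol. Dex arrays 2 and 5 were high and ethanol array 5 was low, while the others lay within a narrow band. The log2 fold change was 0.31 (SE 0.09, adjusted p = 0.0234 in limma, and 0.0619 with the covariates), and leaving out any of these 3 arrays ended the call. Mcm2 had 207, 233, 197.1, 215.9 and 250.2 with Dex, and 210.1, 204.1, 215.6, 202.7 and 180.8 with ethanol. The groups overlapped, and the log2 fold change of 0.12 was not called (adjusted p = 0.344 in limma). The remaining helicase genes, Mcm4, Mcm5, Mcm7, Cdc6, Gins1 and Gins2, ran from -0.13 to 0.21 with none called.

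Pcna had 139.3, 121.7, 135.6, 133.7 and 110.9 with Dex at 24 h, and 100.7, 106.3, 109.2, 113.5 and 110.2 with ethanol. The Dex arrays were higher except for array 5. The log2 fold change was 0.24 (SE 0.07, adjusted p = 0.0196 in limma, and 0.0693 with the covariates), and it missed the threshold without Dex array 1, Dex array 3 or ethanol array 1. The clamp loader genes Rfc3 and Rfc4, Fen1 and Lig1 lay between -0.05 and 0.06. Ccne1 gave 0.15 and was not called.

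In nucleotide supply, Tyms had 244.6, 276.6, 245.5, 251.6 and 258 with Dex at 24 h, and 313.4, 292.9, 312.4, 305.3 and 308.4 with ethanol. Every Dex array lay below every ethanol array. The log2 fold change was -0.27 (SE 0.08, adjusted p = 0.0164 in limma, and 0.0581 with the covariates), beside -0.32 at 6 h. Rrm2 had 479.3, 707.4, 634.5, 595.6 and 602.9 with Dex, and 602, 484, 431.4, 557.1 and 448.8 with ethanol. The groups overlapped, with Dex array 1 among the lower ethanol values, and the log2 fold change of 0.26 was not called (adjusted p = 0.129 in limma). The similarly bright second probe of Rrm2 gave 0.37 (adjusted p = 0.00231 over all probes in limma), and without Dex array 1 the brightest probe gave 0.34 (0.0440). Tk1 had 149.1, 164.2, 155.1, 154.7 and 149.3 with Dex, and 146.9, 140.6, 144.2, 154.8 and 138.8 with ethanol, with a log2 fold change of 0.09 that was not called.

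Among the mitosis genes, Cdk1 had 490.5, 621.4, 479.3, 466 and 491.1 with Dex at 24 h, and 368.6, 329.1, 396.8, 416 and 374 with ethanol. Every Dex array lay above every ethanol array, and Dex array 2 stood apart at the top. The means were 510 ± 63.3 with Dex and 377 ± 32.7 with ethanol (SD, n = 5 each), or 0.43 on the log2 scale (SE 0.08, adjusted p = 0.000355 in limma, and 0.00243 with the covariates). Both other probes of Cdk1 were dim, with 89.6 and 81.9 units on average over the arrays, and gave -0.11 each, so the call rests on the single bright probe. Kif20a, a kinesin of late mitosis, had 70.8, 68.3, 68.4, 67.2 and 71.4 with Dex, and 76.9, 80.6, 82.1, 83.4 and 75.9 with ethanol. The groups did not overlap, at levels below the median of all probes, and the log2 fold change was -0.20 (SE 0.05, adjusted p = 0.00608 in limma, and 0.0521 with the covariates).

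Kif11, the motor that pushes spindle poles apart, had 98.4, 83.9, 96.1, 95.6 and 99.4 with Dex at 24 h, and 106, 120.9, 105.4, 104.9 and 101.4 with ethanol. The groups did not overlap, yet the log2 fold change of -0.19 missed the threshold (adjusted p = 0.0759 in limma). Top2a had 171.9, 177.2, 158.9, 150.2 and 172.7 with Dex, and 178.2, 179.8, 202, 219.3 and 170.9 with ethanol. One ethanol array lay within the Dex range, and the log2 fold change was -0.19 (adjusted p = 0.0564 in limma), a call without ethanol array 5 (-0.23, 0.0304). The spindle-associated gene Nusap1 gave -0.21 (0.0562). Cdc20 had 403, 529.8, 426.6, 385.7 and 466.3 with Dex, and 453.7, 389.6, 421, 467.9 and 425.1 with ethanol, fully overlapping ranges with 0.03. One of its 3 dimmer probes gave 0.36 at 24 h (adjusted p = 0.00234 over all probes in limma). The other mitosis genes, among them the cyclins Ccna2 and Ccnb2, the checkpoint genes Bub1, Bub1b and Mad2l1, the kinases Plk1, Aurka and Aurkb, Birc5 and Cenpa, ran from -0.07 to 0.06, and Tpx2 gave 0.11 at 24 h. None of these was called.

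**Figure D3:**
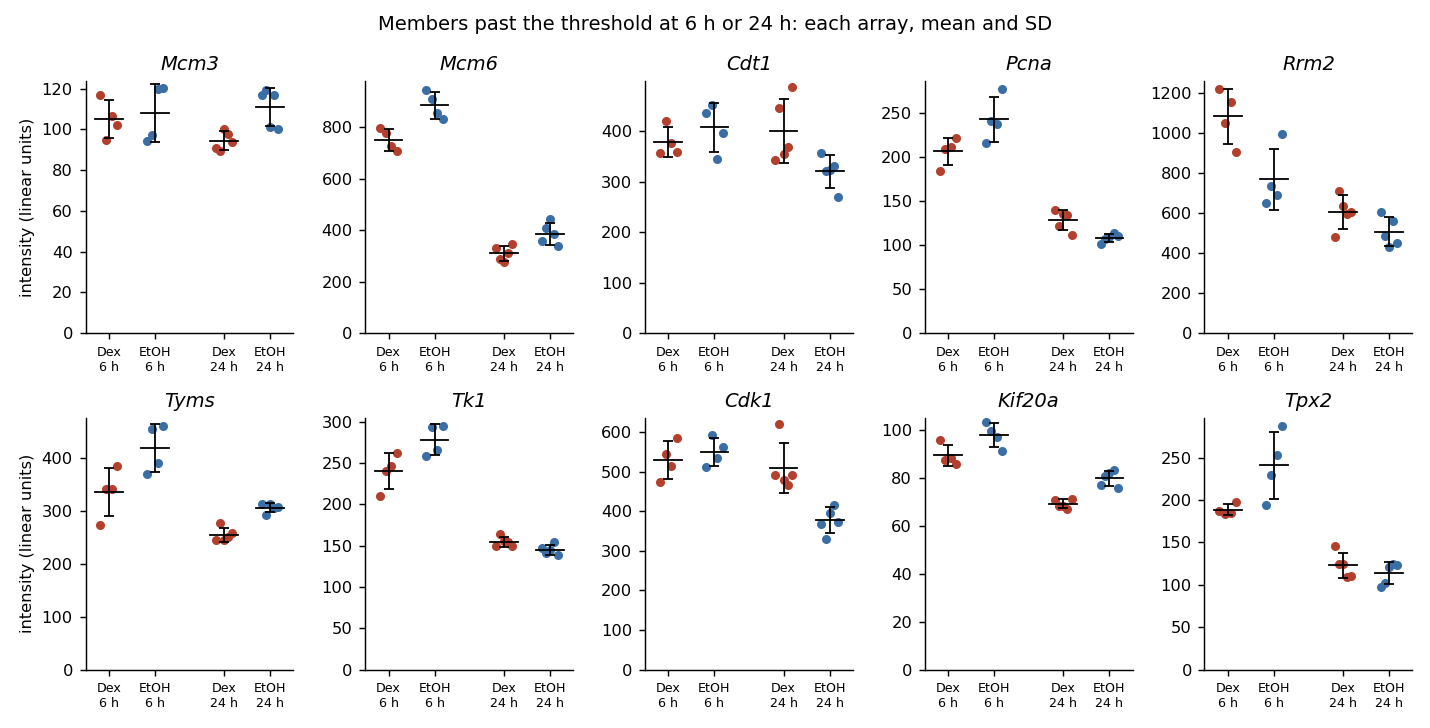
Intensity (linear units, y axis from 0) of the 10 genes past the threshold at 6 h or 24 h in every array, by group (x axis, EtOH for ethanol), with points for arrays and lines for the mean and SD. Cdk1, Tyms and Kif20a separate the Dex from the ethanol arrays at 24 h, while Rrm2 is higher with Dex at 6 h apart from 1 array of each group.

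The change of the Dex effect between the times was tested as the log2 fold change at 24 h minus that at 6 h. It passed the threshold for 3 of 38 members (7.89%), all of them higher at 24 h, beside 4.94% of all genes (2.46% higher, 2.48% lower). Pcna had 0.24 at 24 h and -0.23 at 6 h, a difference of 0.48 (SE 0.11, adjusted p = 0.0103 in limma, and 0.0589 with the covariates). Cdk1 had 0.43 at 24 h and -0.06 at 6 h, a difference of 0.49 (SE 0.12, adjusted p = 0.0157, and 0.0713 with the covariates). Tk1 had 0.09 at 24 h and -0.22 at 6 h, a difference of 0.31 (SE 0.09, adjusted p = 0.0461, and 0.193 with the covariates), and leaving out any of 14 of the 18 arrays ended this last call. With the covariates, 0 members and 1.22% of all genes were called. In the fit without them, 8 of 38 members and 3866 of all 19057 genes had an unadjusted p under 0.05, a similar share. With the probes of a gene averaged, the difference was 0.015 for Cdk1 and -0.014 for Tk1, and neither was called (adjusted p = 0.937 and 0.922 in limma). Rrm2, called only at 6 h, had 0.26 at 24 h and 0.51 at 6 h, and the difference of -0.25 was not called (adjusted p = 0.442 in limma). The similarly bright second probe of Rrm2 gave a difference of -0.47, which was called (adjusted p = 0.0241 over all probes in limma). Likewise Mcm6, called only at 24 h, had -0.31 at 24 h and -0.24 at 6 h, with a difference of -0.08 (adjusted p = 0.743 in limma).

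Set side by side as phases, the replication genes and the mitosis genes had median log2 fold changes near those of all genes. At 6 h the medians were -0.04 for the 21 replication genes and -0.06 for the 17 mitosis genes, with 0.00 for all genes, and at 24 h they were 0.04 and -0.03, with 0.00 for all genes. Log2 fold changes above 0 were found in 6 of 21 replication genes and 3 of 17 mitosis genes at 6 h, against 9749 of 19057 genes in all. At 24 h they were found in 12 of 21 replication genes and 7 of 17 mitosis genes, against 9524 of all genes. The threshold was passed by 3 replication genes (14.3%) and 1 mitosis gene (5.88%) at 6 h, beside 9.06% of all genes, and by 5 replication genes (23.8%) and 2 mitosis genes (11.8%) at 24 h, beside 16.5%. With the covariates these counts were 1 and 0 at 6 h, and 1 and 1 at 24 h.

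The level of each phase in single arrays was taken as the median over its genes of log2 intensity minus the ethanol mean of that time. For replication it ran from -0.14 to -0.02 over the Dex arrays and from -0.065 to 0.08 over the ethanol arrays at 6 h, and from -0.08 to 0.11 with Dex and from -0.08 to 0.07 with ethanol at 24 h. For mitosis it ran from -0.19 to -0.015 with Dex and from -0.06 to 0.08 with ethanol at 6 h, and from -0.105 to 0.05 with Dex and from -0.07 to 0.08 with ethanol at 24 h. The groups overlapped in all 4 comparisons. Without ethanol array 3 of 6 h, the replication median at 6 h was -0.12.

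**Figure D4:**
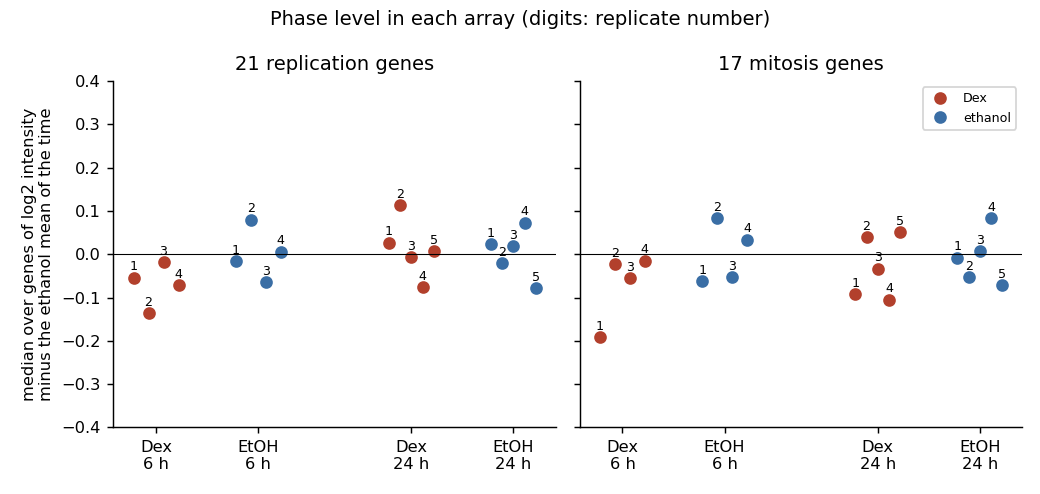
Median over the 21 replication genes (left) and the 17 mitosis genes (right) of log2 intensity minus the ethanol mean of the same time (y axis) in each array, by group (x axis, EtOH for ethanol), with the replicate number above each point. Dex and ethanol arrays overlap at both times in both phases.

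Several genes carry more than 1 probe, and these did not always move together, as the plot of probes shows. The brightest Tyms probe gave -0.32 at 6 h and -0.27 at 24 h, the next (140.6 units on average over 18 arrays) gave -0.27 and -0.17, and 3 probes near the floor ran from -0.09 to 0.10 at 6 h. The brightest Tk1 probe gave -0.22 at 6 h, and its 3 dimmer probes ran from -0.04 to 0.12. For Rrm2, all 3 probes had values above 0 at both times. With the mean log2 intensity of all probes in place of the brightest, Tyms at both times, Tk1, Mcm6 and Cdk1 were no longer called, and Rrm2 was called at 24 h as well (0.22, adjusted p = 0.0338 in limma). Tpx2 has 1 probe and kept its -0.34, and its adjusted p over all genes became 0.0563.

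**Figure D5:**
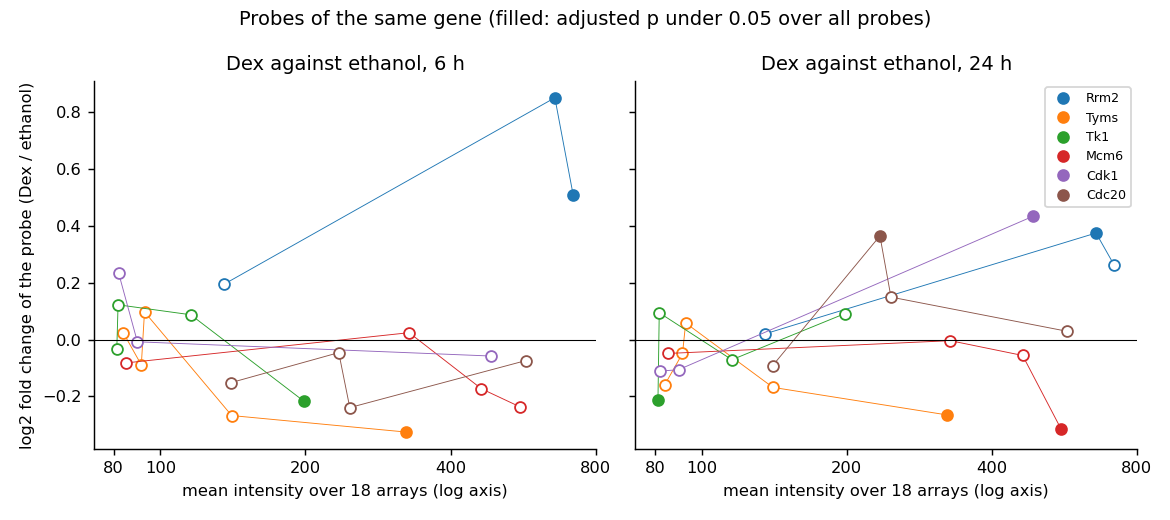
Log2 fold change of Dex over ethanol (y axis) against mean intensity over 18 arrays (x axis, log scale) for every probe of 6 genes at 6 h (left) and 24 h (right), with probes of a gene joined and filled points for adjusted p under 0.05 over all probes. The 2 bright Rrm2 probes are both filled at 6 h, whereas Cdk1 and Mcm6 have 1 filled probe each at 24 h.

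Other genes of replication, 39 of 40 with a probe, passed the threshold in 2 cases at 6 h (5.13%, beside 9.06% of all genes), both higher, and in 5 cases at 24 h (12.8%, beside 16.5%), 2 higher and 3 lower, with medians of 0.01 at 6 h and 0.02 at 24 h. Rnaseh2a, a subunit of the nuclease that removes RNA from DNA, averaged 579 ± 74.7 with Dex and 375 ± 91.8 with ethanol at 6 h (SD, n = 4 each), or 0.65 on the log2 scale (adjusted p = 0.000398 in limma, and 0.00175 with the covariates). At 24 h it gave 0.34 (0.0237, and 0.0599 with the covariates). Genes of DNA polymerase delta subunits were among them, Pold1 at 6 h (0.32, adjusted p = 0.0238, and 0.0786 with the covariates) and Pold2 at 24 h (0.32, 0.000422, and 0.00533). Dscc1, which helps load the clamp, and Rpa3, which coats single-stranded DNA, fell at 24 h by 0.33 and by 0.30 on the log2 scale (adjusted p = 0.00249 and 0.00588 in limma, 0.0127 and 0.0263 with the covariates). Dscc1 lay at percentile 46.2 of all genes in ethanol at 24 h. It averaged 72.9 with Dex and 91.5 with ethanol there, around the array medians of 85.2 to 86.8, so it was close to the floor of the array. The Dex effect differed between the times for Pold2 (0.34 higher at 24 h), Cdc45, a partner of the helicase (0.43 higher), and Pold1 (-0.45), none of them called with the covariates. With its probes averaged, the difference of Cdc45 was 0.175 and was not called (adjusted p = 0.323 in limma).

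Other genes of mitosis, 52 of 54 with a probe, passed the threshold in 2 cases at 6 h (3.85%, beside 9.06% of all genes), both lower, and in 9 cases at 24 h (17.3%, beside 16.5%), 3 higher and 6 lower, with medians of -0.05 at 6 h and -0.03 at 24 h. Aspm, a spindle pole protein gene, and Spc25, a kinetochore gene, gave -0.30 and -0.36 at 6 h (adjusted p = 0.0203 and 0.0297 in limma, and 0.0760 and 0.0849 with the covariates). At 24 h Ndc80, of the same kinetochore complex as Spc25, averaged 123 ± 6.88 with Dex and 162 ± 9.56 with ethanol (SD, n = 5 each), or -0.40 on the log2 scale (adjusted p = 0.00146, and 0.00729 with the covariates). Ncapg, a condensin subunit gene, fell by 0.27 on the log2 scale (0.00215, and 0.0169 with the covariates), at percentile 40.8 of all genes in ethanol. It averaged 72.3 with Dex and 87.1 with ethanol at 24 h, close to the floor of the array. In the other direction, the kinetochore motor gene Cenpe gave 0.34 and Prc1, which bundles spindle microtubules, gave 0.33 (adjusted p = 0.00132 and 0.00496 in limma, 0.0085 and 0.0214 with the covariates). With the probes of a gene averaged, Prc1 gave 0.17 and was not called (0.0934). Cenpe lay at percentile 1.2 of all genes in ethanol at 24 h, so it was at the floor of the array there. The Dex effect differed between the times for Cenpe, Nek2 and Cdc25c, none of them called with the covariates. Nek2 was also near the floor, at percentile 0.4 at 6 h and 20.8 at 24 h in ethanol. With the probes of a gene averaged, the differences of Nek2 and Cdc25c were -0.11 and 0.12 and were not called (adjusted p = 0.206 and 0.203 in limma).

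Among the 17 E2F and pocket protein genes, all with a probe, 3 rose and 2 fell at 6 h (29.4%, beside 9.06% of all genes), and 3 rose and 1 fell at 24 h (23.5%, beside 16.5%), with medians of 0.02 at 6 h and -0.07 at 24 h. With the covariates 2 were called at 6 h and 3 at 24 h. E2f2, an activating E2F, had 1832.5, 1785, 1707.8 and 1451.4 with Dex at 6 h and 3569.1, 2684.7, 2384 and 2056 with ethanol, and 913.1, 795, 898.5, 1116.6 and 978.3 with Dex at 24 h and 1990.7, 2177.3, 1910.8, 1520.5 and 1892.2 with ethanol. The groups did not overlap at either time. The log2 fold changes were -0.63 at 6 h (SE 0.13, adjusted p = 0.00223 in limma, and 0.00723 with the covariates) and -1.01 at 24 h (SE 0.12, adjusted p = 9.51e-07, and 5.25e-06 with the covariates). A second bright probe of E2f2 gave -0.40 at 6 h (adjusted p = 0.140 over all probes in limma) and -1.16 at 24 h (2.09e-06).

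Tfdp2, which encodes a DP partner that E2F factors need to bind DNA, moved the other way. It had 788.9, 706.2, 738.6 and 683.9 with Dex at 6 h and 443, 404.2, 416.2 and 387.5 with ethanol, and 330.4, 370.5, 335.4, 394.7 and 391.3 with Dex at 24 h and 279.6, 268.9, 265.5, 239.4 and 244.8 with ethanol. All Dex arrays were above all ethanol arrays at both times, with log2 fold changes of 0.82 at 6 h (SE 0.07, adjusted p = 1.32e-08 in limma, and 5.96e-07 with the covariates) and 0.49 at 24 h (SE 0.06, adjusted p = 5.93e-06, and 0.000123 with the covariates). Its 5 other probes ran from 0.03 to 0.33 at 6 h and from -0.04 to 0.31 at 24 h. The repressor E2f4 gave 0.27 at 6 h and 0.20 at 24 h (adjusted p = 0.0149 and 0.0275 in limma, 0.0722 and 0.100 with the covariates), and E2f8 gave -0.25 at 6 h (0.0185, and 0.0931 with the covariates), at percentile 43.7 of all genes in ethanol. E2f8 averaged 86.9 with Dex and 103 with ethanol at 6 h, around the array medians of 99.8 to 100.4, so it was close to the floor of the array. The activator E2f3 gave 0.25 at 24 h (0.0105, and 0.0488 with the covariates), and 0.13 with its probes averaged, which was not called (0.163).

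Markers of unfused and of fused muscle cells were set beside these values. The myotube-like list, 15 of 16 with a probe, summed to 270891 to 279231 with Dex and 271406 to 283446 with ethanol at 6 h, and to 194972 to 211456 with Dex and 179746 to 221357 with ethanol at 24 h. No marker of it was called at 6 h, and 2 of 15 had an unadjusted p under 0.05, beside 4232 of all 19057 genes. At 24 h Casq2, Ckm and Actn2 rose and Myog fell (26.7%, beside 16.5% of all genes), of which the call of Actn2 was lost with the covariates. The myoblast-like list, 12 of 12 with a probe, summed to 19740 to 22950 with Dex and 19290 to 20538 with ethanol at 6 h, and to 16408 to 18585 with Dex and 17850 to 19962 with ethanol at 24 h. Of its markers Sdc4, Cd34, Myf5 and Ccnd1 rose and Id2 fell at 6 h (41.7%, beside 9.06% of all genes), and Msc rose and Id2 and Myod1 fell at 24 h (25%, beside 16.5%). Its median log2 fold change was 0.15 at 6 h, with 9 of 12 above 0, and -0.09 at 24 h, with 5 of 12. With the covariates 3 of them, Sdc4, Cd34 and Id2, were called at 6 h and Id2 alone at 24 h. Myf5 averaged 110 with Dex and 87.3 with ethanol at 6 h, at percentile 11 of all genes in ethanol, so it was close to the floor of the array. Pax7, a marker of muscle stem cells, averaged 91.8 ± 10.2 with Dex and 82.5 ± 7.05 with ethanol at 6 h, at percentile 2.3 of all genes in ethanol, and 70.8 ± 2.40 with Dex and 75.9 ± 2.76 with ethanol at 24 h, at percentile 15.9. Of the 12 genes of other organs Krt14 fell at both times (-0.42 at 6 h and -1.22 at 24 h) and Alb rose by 0.16 at 24 h. Alb averaged 79 with Dex and 70.6 with ethanol at 24 h, at percentile 3.3 of all genes in ethanol, so it was at the floor of the array. With the covariates Krt14 was called at 24 h, and neither Krt14 at 6 h (adjusted p = 0.101 in limma) nor Alb (0.166) was. The part of these markers in the values of the replication and mitosis genes was not tested. The sums of the lists follow their brightest genes and say little of the dimmer markers. In ethanol at 6 h, for example, Vim averaged 9455 of a myoblast-like sum that averaged 19838.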

How the data were processed

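Total RNA was labelled with biotin and hybridised to bead arrays. The deposited table holds one linear intensity per probe and array, pre-processed by the authors in lumi, which the submitters' processing notes and the design text name. How background and scale were treated is not given in the sources used here. In all, the table lists 45281 probes, and GEO's annotation gives 1 symbol for 34885 of them, several for 18 and none for 10378. Gene IDs led to the GRCm38.p6 symbol for 34807 probes, and 78 kept the old one. The brightest probe stood for each of 19057 genes, and no detection calls were used here.

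Log2 intensities (pseudocount 0, no filter) were fitted in limma 3.58.1 under R 4.3.3 with a mean for each of 4 groups over 18 arrays, followed by empirical Bayes moderation. P-values were adjusted by Benjamini-Hochberg over all genes, with a threshold of 0.05. Directions of the within-group deviations that held under 0.001% of the spread over 786 genes with a mean log2 above 12 entered as covariates in one alternative. The number of arrays limits the precision. The script was tested on simulated data with independent noise in every array. The arrays here are not of that kind, so the test does not give the error rate in these data. Correlations of same-numbered deviations ran from -0.08 to 0.256 at 6 h and from -0.928 to -0.19 at 24 h over all genes. At 24 h, same-numbered Dex and ethanol arrays thus deviated in opposite directions, a dependence that the main fit does not allow for. With the replicate number as a block, 2255 of all genes were called at 24 h, beside 3142 in the main fit. Over the 786 bright genes the correlations ran from 0.193 to 0.587 at 6 h and from -0.973 to -0.129 at 24 h, so the 6 h numbers may pair the arrays.

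Genes with values in every array were those past the threshold plus Pcna, Mcm2, Rrm2, Tyms, Cdk1, Top2a and Cdc20 (Mki67 and Ccnb1 had no probe); from the lists of other replication genes, other mitosis genes and E2F and pocket protein genes, at most the 4 with the smallest p in each comparison were named. E2f2 and Tfdp2 were given by array, and Kif11 likewise, and other members were named as ends of a range or as examples, after their values were seen. The members, their split into phases and all lists were chosen with earlier results of these data known. Alternatives were other normalizations, probe summaries, filters, fits and left-out arrays.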

Additional observations from a re-analysis of the deposited data

Results flagged for a closer look

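Single arrays stood apart in 12 of 280 screens of a gene within a group, by the gap to the nearest other array as a share of the group's range (beyond Dixon's 95% critical value). Chance alone gives about 5% of groups. Cdk1 at 24 h had 621.4 in Dex array 2, against 466 to 491.1 in the other Dex arrays (gap 0.8385). Kif11 had 83.9 in Dex array 2, against 95.6 to 99.4 (gap 0.755), and 120.9 in ethanol array 2, against 101.4 to 106 (gap 0.764). Ccnb2 had 62.7 in Dex array 2 of 24 h, against 74.3 to 77.7 (gap 0.773), 84.7 in ethanol array 2 of 24 h, against 65.1 to 69.4 (gap 0.781), and 92.7 in ethanol array 3 of 6 h, against 88 to 88.7 (gap 0.851). Dut had 99.5 in Dex array 3 of 24 h, against 92.2 to 94 (gap 0.753). Rnaseh2a had 361.4 (gap 0.748) and Cdc25c 121.7 (gap 0.73) in Dex array 2 of 24 h, against 299.8 to 315.3 and 94.7 to 102, and Nek2 had 75.5 in ethanol array 2 of 6 h, against 80.5 to 80.7 (gap 0.962). Myf5, a myoblast marker, had 133.1 in Dex array 3 of 6 h, against 100.2 to 103.7 (gap 0.8936), and 101 in ethanol array 4 of 6 h, against 81.1 to 84.5 (gap 0.8291). Both 24 h arrays numbered 2 recur here. Without Dex array 2 of 24 h the log2 fold change of Cdk1 was 0.36 (adjusted p = 0.00193 in limma).

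The Dex effect at 24 h minus that at 6 h passed the threshold in limma for 14 of the named genes. It was 0.48 for Pcna, 0.31 for Tk1 and 0.49 for Cdk1, and 0.34 for Pold2, 0.43 for Cdc45, -0.45 for Pold1, 0.36 for Cenpe, -0.33 for Nek2, 0.37 for Cdc25c and -0.33 for Tfdp2. With the near-empty directions as covariates the adjusted p-values of these 10 ran from 0.0589 for Pcna to 0.193 for Tk1, and none passed. Among the cell markers it was 0.63 for Casq2, 0.78 for Actn2, -0.66 for Cd34 and -0.80 for Krt14, and with the covariates Casq2 and Krt14 passed (adjusted p = 0.0409 and 0.0342 in limma), while Cd34 (0.0524) and Actn2 (0.104) did not.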

How the results depend on the processing

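The number of members called at 6 h, 4 as reported, was 1 with the 6 h arrays alone (908 of all genes), 1 with the near-empty directions as covariates (850), 2 with the replicate block (1220), 1 with probes of a gene averaged (1516) and 2 with array weights (1079). At 24 h, 7 as reported became 2 with the covariates (1694 of all genes) and 15 with array weights (5552, or 29.1%, of all genes). For the difference between times, 3 became 0 with the covariates (232) and 1 with the mean of probes (820). The other alternatives kept these counts within 1.5 times: quantile normalization within each time, normexp with an offset of 50, only genes above the median level, a pseudocount of 16, a trended prior variance and leaving out both 24 h arrays numbered 1. The members behind a count could still change. Without both 24 h arrays numbered 1, Mcm3, Pcna and Tyms lost their calls at 24 h (adjusted p = 0.151, 0.123 and 0.0705 in limma). Rrm2 gained a call at 24 h in that fit (0.41, adjusted p = 0.0186 in limma). Leaving out 1 array at a time gave 1 to 5 calls at 6 h, with 2 without ethanol array 4, Dex array 2 or Dex array 3 and 1 without Dex array 1, 5 to 7 at 24 h and 2 to 4 for the difference. Medians ran from -0.122 to -0.024 (replication) and from -0.092 to -0.021 (mitosis) at 6 h, and from 0.013 to 0.083 and from -0.045 to -0.003 at 24 h. Signs reversed for Cdk1 at 6 h (0.056) and for Tk1 in the difference (-0.014) with the mean of probes, and for Cdc20 at 24 h (-0.038 to 0.076 over left-out arrays, with -0.007 without ethanol array 2 and -0.038 without Dex array 2). Rrm2 at 6 h was called under all 11 alternatives (adjusted p = 0.000143 to 0.0348 in limma). The replicate block, for numbers that may pair the 6 h arrays, ended the calls of Tk1 and Tpx2 at 6 h (adjusted p = 0.0816 and 0.0561), and gave 6 calls at 24 h and 2 for the difference. Outside the members, single left-out arrays ended the calls at 6 h of Pold1 (5 of 8 arrays), Spc25 (5), E2f8 (4), Aspm (3) and E2f4 (1, ethanol array 3), and at 24 h of E2f4 (6 of 10) and Rnaseh2a (2, both arrays numbered 2), and of Prc1, E2f2 and Tfdp2 none. Causes were not tested, apart from the smaller number of arrays or degrees of freedom in the fits named.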
